A study of Mus musculus with 8 samples.

Results

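Retinal cells of ICR mice (slc:ICR) sorted at postnatal day 2 (P2) into a Cd73-positive fraction (Cd73PC) and a Cd73-negative fraction (Cd73NC) were compared by RNA sequencing. Cd73 is a cell surface enzyme that appears early on rod precursors, and the cells had been separated with an antibody to it after trypsin dissociation and stained with propidium iodide. Per the methods of the study, 20 retinas were pooled for the P2 sort. There was 1 library for each fraction, so no difference at P2 has a replicate error, none was tested, and every value describes these libraries alone. The other samples of the series, used here only beside P2 values, were whole ICR retinas at embryonic days 15 and 18 (E15, E18) and the same fractions at P5 and P8, also with 1 library each. Of 23021 rows in the deposited tables, 12398 were compared, because they were not small RNAs and had an FPKM of at least 1 in Cd73PC, in Cd73NC or in both. FPKM divides the fragments of a gene by its length and by the size of the library, which allows levels of different genes to be compared.

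The mouse retina at P2 is in the middle of its last wave of neurogenesis. Progenitor cells still divide, rods are the main cell type being born, and bipolar cells and Müller glia follow. A new rod leaves the cell cycle, turns on Crx and Otx2, then Nrl and its target Nr2e3, and builds in the following weeks the phototransduction cascade, the outer segment, a connecting cilium and a ribbon synapse. Cd73PC at P2 are young rod precursors by the marker used to sort them, and Cd73NC are a mixture of everything that lacked it. The authors state that they sorted quickly and gave up some purity for it. In such bulk samples, fewer cells of a type, less RNA per cell and cells carried over from the other fraction cannot be told apart.

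The marker and the rod factor followed the sort. Nt5e, which encodes Cd73, stood at FPKM 97.3 in Cd73PC against 2.43 in Cd73NC (chr9:88222447-88266927, NCBI37/mm9, as are all positions below). In whole retina its FPKM was 0.447 at E15 and 2.76 at E18, so that Cd73NC at P2 stood close to the E18 level. Nrl, the leucine zipper factor that directs the rod fate, had FPKMs of 984 (Cd73PC) and 28.3 (Cd73NC) (chr14:56137815-56143802), against 3.19 at E15 and 36.9 at E18. The antibody had used the product of Nt5e, so its ratio checks the labels and is not a result, whereas Nrl was not used in sorting. In Cd73NC at P5 and P8 the Nrl level was 277 and 107, and that of Nt5e 31.4 and 9.38, so the negative fraction at P2 held the least of both among the sorted negative fractions.

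**Figure D1:**
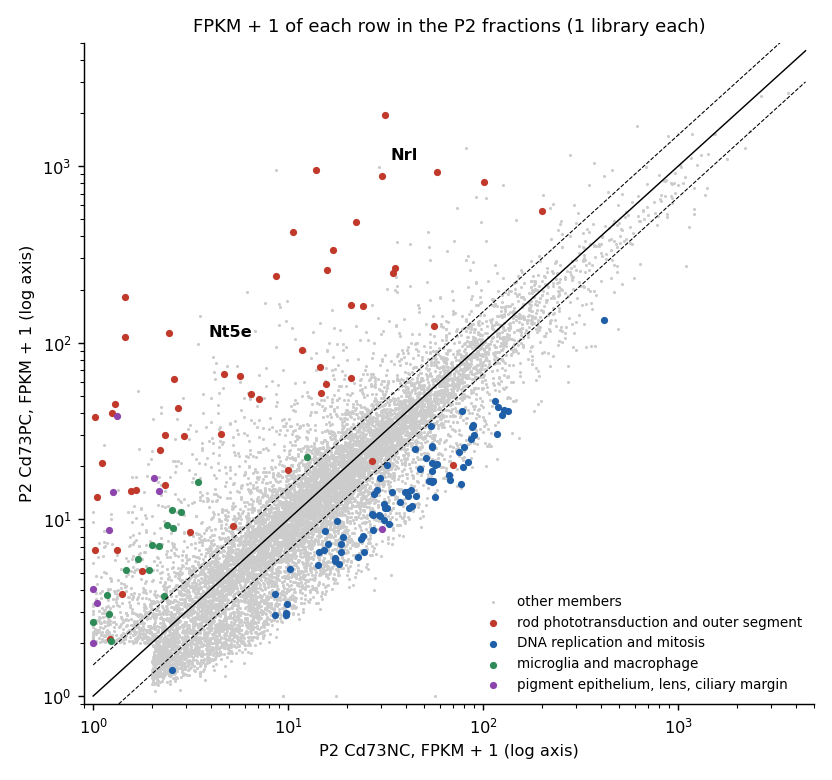
Expression of 12390 rows in Cd73NC (horizontal axis) and Cd73PC (vertical axis) at P2, as FPKM + 1 on log axes, 1 point per row, with rod phototransduction and outer segment genes in red, DNA replication and mitosis in blue, microglia in green, pigment epithelium, lens and ciliary margin in purple, with a line of equality and dashed lines at 1.5-fold. The red points reach far above the upper line, whereas all blue points lie in a band below the lower line.

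Differences were expressed as the ratio of FPKM + 1 in Cd73PC to that in Cd73NC, on a log2 scale where named so, and a row was counted as higher in a fraction past 1.5-fold. Where a pair of levels follows a gene, it is its FPKM at P2, Cd73PC first and Cd73NC second, unless named otherwise. Of the 12390 rows with an estimate in both libraries, 1797 (14.5%) were higher in Cd73PC and 3096 (25%) in Cd73NC. The median log2 ratio of all rows was -0.14. The size of the excess on the Cd73NC side depended on the scaling, with 2244 rows higher in Cd73PC and 2574 in Cd73NC when the libraries were scaled to a median log2 ratio of 0, so that 46.6% of the differing rows were higher in Cd73PC instead of 36.7%, and 2163 and 2615 after quantile normalization. At 2-fold the order was the same, with 963 rows (7.77%) higher in Cd73PC and 1563 (12.6%) in Cd73NC. It was reversed at 4-fold and 8-fold. At 4-fold, 303 rows (2.45%) were higher in Cd73PC and 76 (0.613%) in Cd73NC, and at 8-fold the counts were 102 (0.823%) and 4 (0.0323%). Rows higher in Cd73PC made up 23.0% of the summed FPKM of Cd73PC and 7.67% of that of Cd73NC. The rows higher in Cd73NC made up 27% in Cd73NC and still 13.1% in Cd73PC.

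How much of a transcript remained in the lower fraction was taken directly from FPKM, over rows with an FPKM of at least 10 on the higher side. Of 1137 such rows higher in Cd73PC, 48 kept less than 5% of their level in Cd73NC, 107 less than 10%, and 235 less than 20%. Of 1688 such rows higher in Cd73NC, 2 kept less than 5% in Cd73PC, the same 2 less than 10%, and 40 less than 20%. These 2 rows were LOC100302567, a locus without a gene name, and Gm6793, a predicted gene, and both values are uncertain, as described below. The median share that remained was nearly equal in the 2 directions, 45.0% and 45.7%, but the lowest 5% of rows lay under 5.73% in the first and under 22.4% in the second. Rows enriched in Cd73NC were thus seldom missing from Cd73PC, and the cause, carried-over cells included, was not tested.

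**Figure D2:**
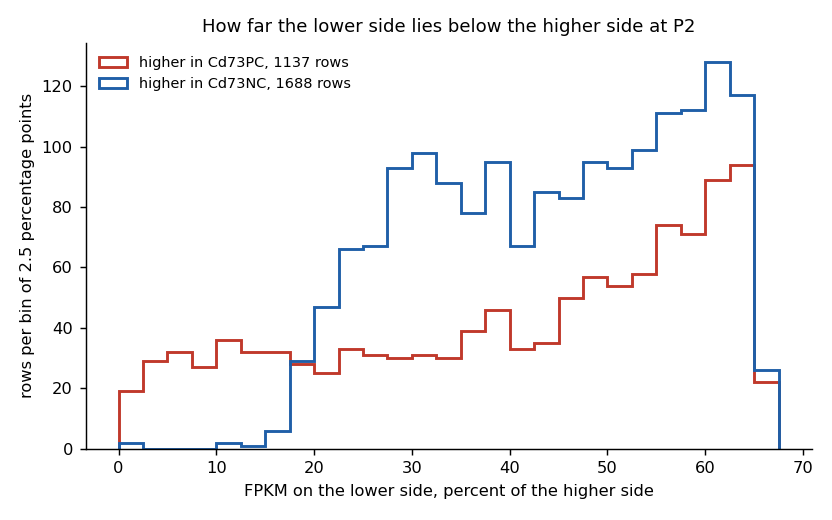
Share of the higher fraction's FPKM that was found in the lower fraction (horizontal axis, percent) against the number of rows (vertical axis), for rows with an FPKM of at least 10 on the higher side. The 1137 rows higher in Cd73PC reach down to near 0%, whereas the 1688 rows higher in Cd73NC thin out at about 20%.

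Among the 20 transcription factors of rod and cone fate, 17 were above Cd73NC in Cd73PC and 3 below, 11 past 1.5-fold upwards and 2 downwards of the 18 that passed the FPKM filter. The factors nearest to the rod fate were separated the most. Nr2e3, the nuclear receptor that Nrl activates and that represses cone genes, stood at 949.6 in Cd73PC and 7.63 in Cd73NC, and the latter was below its 28.9 in E18 whole retina. Samd7, a photoreceptor protein linked to Polycomb silencing, stood at 141 and 2.54. The homeobox factor Crx had FPKMs of 660.0 (Cd73PC) and 102 (Cd73NC), a ratio of 6.39-fold against 110.1-fold for Nr2e3. Its partner Otx2, needed in all photoreceptors and in bipolar cells, was at 777 and 349, or 2.22-fold. Between these lay Neurod1, a bHLH factor (687 and 202), Prdm1, which keeps photoreceptors from the bipolar fate (108 and 36.6), the zinc finger factor Casz1 (44.2 and 12.2) and Mef2d (70.4 and 16.4). The nuclear receptors used by cones were also higher in Cd73PC, Rxrg at 26.9 against 3.48 and Thrb at 15.0 against 5.40. Against the direction went Tbx2, a T-box factor, with 29.3 in Cd73PC and 74.2 in Cd73NC, and the retinoic acid receptor Rarb with 3.71 and 8.33. Rorb, which acts before Nrl, was equal at 52.6 and 52.2.

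The rod phototransduction list held 28 rows, and all 28 were higher in Cd73PC. All 26 that passed the FPKM filter were past 1.5-fold, although 11 of them passed through Cd73PC alone, which fixes their direction. Over all 28 rows the median log2 ratio was 3.08. The highest levels in Cd73PC belonged to regulators of the cascade and to Rbp3. Phosducin (Pdc), which binds transducin beta-gamma, reached 1935 in Cd73PC and 30.4 in Cd73NC, and arrestin (Sag), which helps to end the light response, 944 and 12.9. The transducin subunits were uneven. The gamma subunit Gngt1 was at 238 and 7.71, while the alpha subunit Gnat1 was only at 13.7 and 0.651 and the beta subunit Gnb1, used by many cells, at 557 and 199. The phosphodiesterase subunits differed in the same way, with 483 and 21.3 for the inhibitory Pde6g, 107 and 0.46 for the catalytic Pde6b, and 5.69 and 0.0262 for its partner Pde6a. Of the rod cyclic GMP channel, Cnga1 was at 37.1 and 0.0206 and Cngb1 at 44.3 and 0.29. A further row with the symbol Cngb1, on chromosome 5, had similar values (39.2 and 0.243), and reads shared between the 2 loci cannot be told apart. The least separated members were the guanylate cyclase activators, Guca1a (18.0 and 8.96) and Guca1b (1.09 and 0.214).

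Levels at P8 show which of these genes were near their later amount at P2. In Cd73PC, Nrl went from 984 at P2 to 1417 at P8, Nr2e3 from 949.6 to 1140.3, Pdc from 1935 to 2964 and Samd7 from 141 to 191. Gnat1 went from 13.7 to 379.9, and Pde6a from 5.69 to 91.6. Of the other abundant genes of the cascade, Sag went from 944 to 4174 and Gngt1 from 238 to 753. Nrl, Nr2e3, Samd7 and Pdc thus differed less between P2 and P8 than Gnat1, Pde6a, Sag and Gngt1 did, in 1 library per age. The comparison covers these named genes only.

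Promoter sequences are shown for 5 rod genes and 2 division genes, to set the letters before the start beside the expression of the groups that differed most. They are the genes with a single table entry and the largest ratios that hold TAATCC, the letters bound by Crx, in the rod factor, phototransduction and outer segment lists, and those with the lowest ratios that hold CCAAT in the DNA replication and mitosis lists. Each sequence is the 250 bases before the transcription start of the RefSeq table (GRCm38.p6), 5′ to 3′ on the strand of the gene. Its NCBI37/mm9 position was found by matching it to that genome. In the 5 rod genes capitals mark TAATCC or its reverse complement GGATTA and TGCTGA, the core letters bound by Nrl, or its reverse complement TCAGCA. In the 2 division genes they mark CCAAT or ATTGG and TTTGAA or TTCAAA, the letters of the CHR element of cell cycle genes, and none of the marked matches overlap. The positions are chr1:89700005-89700254 (plus strand) for Sag, chr3:30644965-30645214 (plus) for Samd7, chr5:73033992-73034241 (minus) for Cnga1, chr8:97830486-97830735 (minus) for Cngb1, chr6:3943758-3944007 (plus) for Gngt1, chr1:20810394-20810643 (minus) for Mcm3 and chr8:77633158-77633407 (plus) for Mcm5. Mcm3 and Mcm5 encode subunits of the replicative helicase.
Sag: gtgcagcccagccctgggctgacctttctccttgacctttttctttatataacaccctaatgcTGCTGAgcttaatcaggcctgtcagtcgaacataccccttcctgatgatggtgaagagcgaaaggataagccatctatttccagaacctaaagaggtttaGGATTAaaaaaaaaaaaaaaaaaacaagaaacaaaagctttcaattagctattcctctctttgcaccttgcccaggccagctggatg
Samd7: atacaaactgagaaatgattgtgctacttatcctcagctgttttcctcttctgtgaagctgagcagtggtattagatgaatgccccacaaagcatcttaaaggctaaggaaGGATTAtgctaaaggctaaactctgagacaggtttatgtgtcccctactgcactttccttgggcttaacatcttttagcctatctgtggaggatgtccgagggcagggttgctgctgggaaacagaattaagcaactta
Cnga1: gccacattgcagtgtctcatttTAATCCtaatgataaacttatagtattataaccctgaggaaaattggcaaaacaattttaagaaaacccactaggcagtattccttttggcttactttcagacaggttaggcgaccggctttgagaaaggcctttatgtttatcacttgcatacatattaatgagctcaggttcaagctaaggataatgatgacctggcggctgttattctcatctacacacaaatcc
Cngb1: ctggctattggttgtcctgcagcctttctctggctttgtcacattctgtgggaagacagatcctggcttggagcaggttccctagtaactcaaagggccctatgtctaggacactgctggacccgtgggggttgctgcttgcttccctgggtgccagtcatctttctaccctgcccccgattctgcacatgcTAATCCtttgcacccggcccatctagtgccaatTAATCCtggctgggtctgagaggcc
Gngt1: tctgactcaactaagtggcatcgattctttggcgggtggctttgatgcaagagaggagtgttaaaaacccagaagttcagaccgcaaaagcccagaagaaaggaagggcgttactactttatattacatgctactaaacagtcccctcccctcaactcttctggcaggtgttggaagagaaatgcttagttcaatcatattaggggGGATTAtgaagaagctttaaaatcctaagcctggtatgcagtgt
Mcm3: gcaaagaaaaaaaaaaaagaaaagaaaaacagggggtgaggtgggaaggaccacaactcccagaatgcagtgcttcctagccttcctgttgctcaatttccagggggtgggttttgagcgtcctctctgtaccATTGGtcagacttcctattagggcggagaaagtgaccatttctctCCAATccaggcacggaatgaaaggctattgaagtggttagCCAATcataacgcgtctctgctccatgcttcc
Mcm5: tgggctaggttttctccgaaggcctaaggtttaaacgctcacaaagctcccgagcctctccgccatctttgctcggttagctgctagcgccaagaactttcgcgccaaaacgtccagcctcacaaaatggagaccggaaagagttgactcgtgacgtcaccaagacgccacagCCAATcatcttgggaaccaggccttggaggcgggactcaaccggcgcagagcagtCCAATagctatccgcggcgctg

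In Sag the GGATTA lies 87 to 82 bases before the start, and the TGCTGA 187 to 182 before it. Cngb1 holds TAATCC at 58 to 53 and again at 25 to 20 bases, Gngt1 at 44 to 39, Samd7 at 139 to 134, and Cnga1 at 228 to 223. Mcm3 holds 3 CCAAT boxes and Mcm5 2. Over the promoters of the rod phototransduction and outer segment lists, 12 of 46 (26.1%) held TAATCC, against 2054 of 32851 (6.25%) in the whole table and 1 of 75 (1.33%) in the DNA replication and mitosis lists. Of the 294 promoters of rows at least 4-fold higher in Cd73PC, 14.3% held it, and of the 57 of rows at least 4-fold higher in Cd73NC, 5.26%. CCAAT was found in 52 of 75 (69.3%) of the division promoters, 37.0% of the rod promoters and 33.8% of all. TGCTGA was in 21.7% of the rod promoters and 16.1% of all, and TTTGAA in 22.7% of the division promoters and 16% of all. Of the promoters of rows at least 4-fold higher in Cd73PC, 13.6% held TGCTGA, 11.2% TTTGAA and 34.4% CCAAT. Of those of rows at least 4-fold higher in Cd73NC, 15.8% held TGCTGA, 7.02% TTTGAA and 29.8% CCAAT. Both groups were drawn from the compared rows. Of the 11204 promoters of all compared rows, 5.06% held TAATCC, 12.4% TGCTGA, 9.90% TTTGAA and 35.7% CCAAT. Several promoters of a gene overlap, the shares were not tested, and a match of letters is not evidence of binding. Only 40 of the 51 symbols of the rod lists had an entry, which leaves out Rp1 among others.

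Structural genes of the outer segment were separated too. Of 26 rows, 24 were higher in Cd73PC, 1 was higher in Cd73NC and 1 was within 1.5-fold, with a median log2 ratio of 2.98, and 3 passed the filter through Cd73PC alone. The disc rim tetraspanins Prph2 and Rom1 had FPKMs of 424 and 873 in Cd73PC and 9.55 and 29.1 in Cd73NC. Rp1, a microtubule protein of the axoneme, was at 113 and 1.46. Tulp1, which takes part in transport to the outer segment, was at 335 and 16.1. The interphotoreceptor matrix proteoglycan Impg2 was at 258 and 14.8. The retinoid-binding protein Rbp3 of the same matrix, listed with phototransduction, was at 929 and 57.2. Mfge8, a secreted bridge to phosphatidylserine that other cells also make, went the other way with 19.3 and 69.4, and the polarity gene Crb1, used by Müller glia too, was at 20.4 and 25.9.

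Cilium genes were separated less. Of 32 rows, 16 were higher in Cd73PC and 1, the ciliogenesis factor Rfx2 (2.29 and 4.56), in Cd73NC. The connecting cilium protein Rpgrip1 was at 35.9 and 1.69. Subunits of the BBSome, which carries membrane proteins in the cilium, were mostly higher in Cd73PC, with Bbs5 at 26.4 and 3.65, its recruiting GTPase Arl6 at 112 and 28.8, and 7 of the 8 measured genes with a Bbs symbol past 1.5-fold. The intraflagellar transport motor Kif3a (17.7 and 20.6) and the train subunit Ift140 (6.73 and 8.61) were not separated.

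Synaptic genes were also enriched at an age before ribbon synapses mature. Of 28 rows of the ribbon synapse list, 21 were higher in Cd73PC and 4 in Cd73NC, with a median log2 ratio of 1.70, and 2 rows passed the filter through each library alone. The vesicular glutamate transporter Slc17a7 had FPKMs of 72.7 (Cd73PC) and 4.49 (Cd73NC), the vesicle protein Syp 582 and 72.0, and the SNARE protein Snap25 361 and 41.0. Lrit2, a leucine-rich repeat protein of photoreceptors, was at 66.9 and 3.16. All 4 measured complexins, which clamp vesicle fusion, were higher in Cd73PC. They included Cplx4 of photoreceptors (13.6 and 1.35) and also Cplx2 (370.3 and 35.1) and Cplx1 (13.5 and 4.44), the forms of conventional synapses. The active zone proteins Rims1 (0.535 and 2.48) and Rimbp2 (0.223 and 1.03) and the vesicle priming factor Cadps (2.21 and 5.58) were higher in Cd73NC. Rims1 and Rimbp2 were the 2 rows that passed the filter through Cd73NC alone, which fixes their side. Ctbp2, from which the ribbon protein is also made, was at 85.5 and 57.7.

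Cone transcripts went partly with the sort. Of 10 rows, 8 were higher in Cd73PC and none in Cd73NC, and the median log2 ratio was 1.88. The cone transducin gamma subunit Gngt2 was the highest at 1259.8 in Cd73PC and 80.3 in Cd73NC, and the potassium channel subunit Kcnv2, which rods share, stood at 36.2 and 1.03. The short-wave opsin Opn1sw was at 86.2 and 26.2 and the cone transducin beta subunit Gnb3, also made by bipolar cells, at 208 and 35.1. The cone transducin alpha subunit Gnat2 (21.9 and 14.8) and the cone phosphodiesterase subunit Pde6h (19.4 and 15.7) were within 1.5-fold. At P5 and P8 the list's median log2 ratio was -0.08 and 0.31.

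Genes of cell division were uniformly lower in Cd73PC. All 40 DNA replication genes and all 40 mitosis genes were higher in Cd73NC, past 1.5-fold in each case, against the 25% of all rows that were. Their median log2 ratios were -1.57 and -1.50, and the range was narrow. Of the replication genes, 1 passed the filter through Cd73NC alone, which fixes its side. In the replication list the ratios ran from Mcm3, at 14.8 in Cd73PC and 75.8 in Cd73NC, to Rfc3, a clamp loader subunit, at 19.2 and 31.2. The sliding clamp Pcna was at 134 and 416, and the licensing inhibitor Gmnn at 12.4 and 55.6. Mitosis genes ran from the proliferation antigen Mki67 (10.5 and 40.4) to the spindle protein Hmmr (7.6 and 14.5), with Top2a at 40.4 and 128 and cyclin B1 (Ccnb1) at 27.7 and 85.7. The median share of the Cd73NC level that was found in Cd73PC was 29.7% for replication and 33.4% for mitosis. All 80 genes were lower in Cd73PC than in E18 whole retina, whose median levels of 36.4 and 39.8 were near those of Cd73NC at P2 (37.3 and 39.3). In Cd73NC the medians were 9.46 and 9.65 at P5, and 5.15 and 1.58 at P8.

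The cyclin and cell cycle exit genes differed more among themselves, with 14 of 25 rows higher in Cd73NC and 1 in Cd73PC. Cyclin D1 (Ccnd1), the main D cyclin of retinal progenitors, was at 272 in Cd73PC and 1095 in Cd73NC, near its level in E18 whole retina (1084). Cyclin D2 (Ccnd2) was the 1 member past 1.5-fold the other way, with 9.75 and 0.239. Ccnd2 passed the filter through Cd73PC alone, which fixes its side at P2, and 1 row of the list passed through Cd73NC alone. Ccnd2 was lower in Cd73PC at P5 (1.53 and 3.34), while at P8 it was within 1.5-fold (0.722 and 1.44). The inhibitor p27 (Cdkn1b), which holds cells out of the cycle, did not separate the fractions (110.4 and 116), nor did p57 (Cdkn1c, 33.5 and 23.6) or cyclin D3 (Ccnd3, 15.6 and 16.1).

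Progenitor transcription factors were lower in Cd73PC in 33 of 36 rows, and of the 35 that passed the FPKM filter 24 were past 1.5-fold and none was past it upwards. Pax6, a factor of the eye field and of progenitors, was at 44.3 and 190.0, Sox2 at 26.0 and 101, Lhx2 at 45.7 and 141, and Sox8 at 25.9 and 106. Rax (254 and 224), Mycn (48.0 and 48.9), Meis2 (45.5 and 44.3) and Vax2 (25.6 and 27.3) were within 1.5-fold, so that not every eye-field or progenitor factor was lower.

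Notch and proneural genes were mostly on the same side. Of 32 rows, 22 were higher in Cd73NC and 3 in Cd73PC. The proneural factors Atoh7 (20.9 in Cd73PC and 116 in Cd73NC), which ganglion cells need, Neurog2 (13.6 and 62.7) and Olig2 (4.57 and 24.3) were all higher in Cd73NC. The same held for the ligands Dll1 (9.15 and 46.4) and Dll4 (5.36 and 27.2) and for the effectors Hes1 (13.7 and 56.9) and Hes5 (25.2 and 108), which carry the Notch signal in progenitors. The receptor Notch1 itself was less separated, at 37.4 and 70.5. Higher in Cd73PC were Insm1 (177 and 58.9) and Btg2 (175 and 109.8), genes of newborn neurons, and the ligand Jag2 at low levels (2.93 and 1.36). Neurod4, shared by photoreceptors and bipolar cells, was at 349 and 252.

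**Figure D3:**
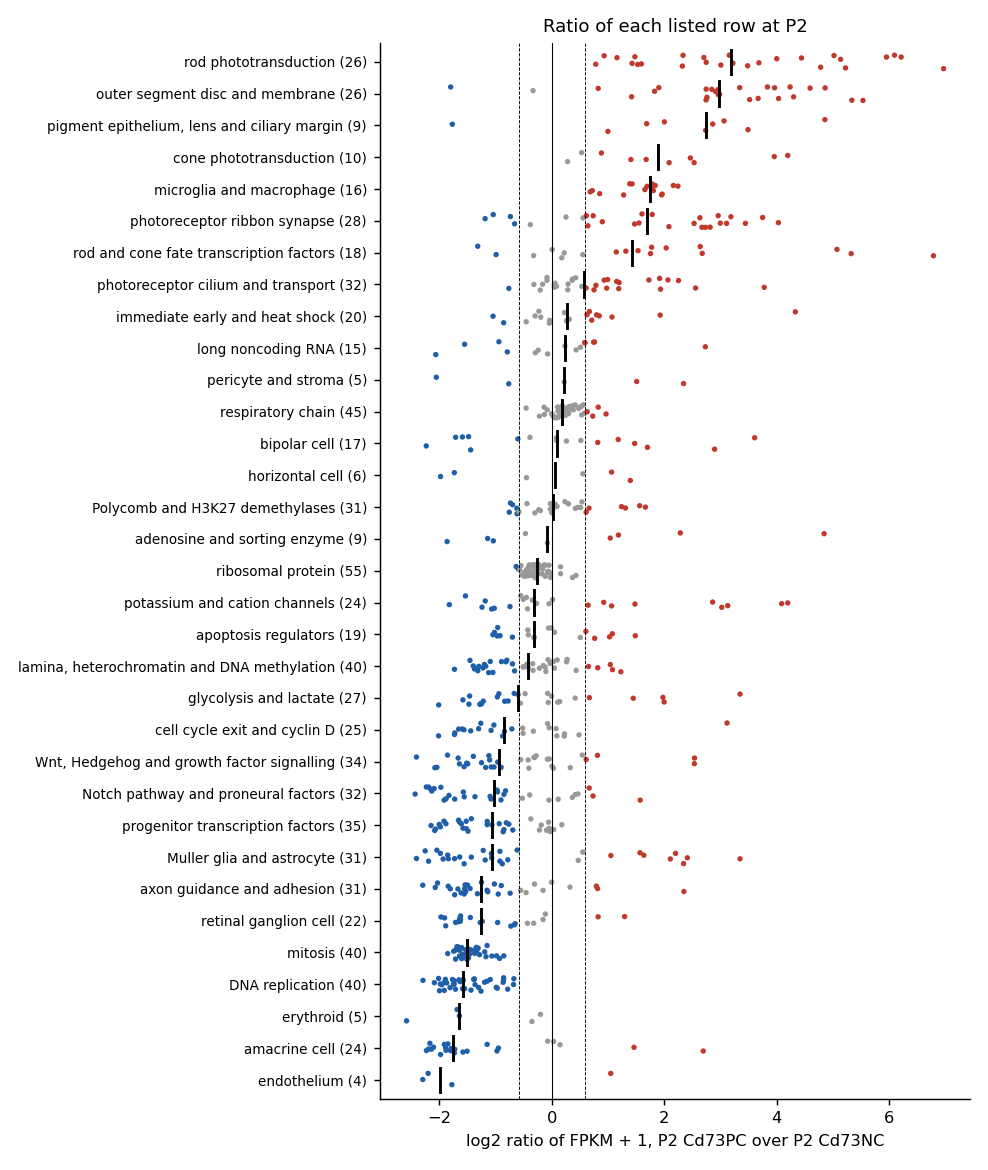
Log2 ratio of FPKM + 1 in Cd73PC to Cd73NC at P2 (horizontal axis) for the members of 33 gene lists (rows), 1 point per table row that passed the FPKM filter coloured red or blue past 1.5-fold, with a bar at each median, a line at 0 and dashed lines at 1.5-fold. The rod phototransduction and outer segment lists lie to the right, DNA replication and mitosis lie to the left in narrow clusters, and ribosomal protein and respiratory chain genes stay close to 0.

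Transcripts of amacrine and ganglion cells were mostly higher in Cd73NC. Of 24 amacrine rows, 19 were higher in Cd73NC and 2 in Cd73PC. The amacrine factors Tcfap2b (21.1 in Cd73PC and 85.9 in Cd73NC) and Ptf1a (5.30 and 26.0) followed that direction, whereas the glycine transporter Slc6a9 was at 47.9 and 6.56. Of 22 ganglion cell rows, 16 were higher in Cd73NC and 2 in Cd73PC, the LIM factor Isl2 (5.12 and 1.49) and the neurofilament Nefh (1.21 and 0.248), while 4 rows passed the filter through Cd73NC alone and Nefh through Cd73PC alone. On the Cd73NC side were Stmn2, a tubulin-binding protein of growing axons, at 16.3 and 62.7 and Gap43 of the growth cone at 9.51 and 31.4. The ganglion cell list was far below E18 whole retina in both fractions, with medians of 2.1 in Cd73PC, 6.08 in Cd73NC and 26.6 at E18. Of 6 horizontal cell rows, 2 were higher in either direction, among them the homeobox gene Prox1 (4.76 and 18.1) and Ndrg1 (581 and 219.7), a gene of several cell types.

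Bipolar genes were split at P2, before most bipolar cells mature. Of 17 rows, 6 were higher in each direction, but 4 of the 17 passed the filter through Cd73PC alone, Gng13 and Trpm1 among them, and 2 through Cd73NC alone, which fixes their direction. Over all 24 rows, 13 were above Cd73NC in Cd73PC and 10 below. The 17 rows had a median log2 ratio of 0.09 that was -0.15 with FPKM of at least 5. On the Cd73PC side were the G protein subunit Gng13 (23.3 and 0.995), the Purkinje and bipolar cell protein Pcp2 (25.9 and 2.62), the cation channel Trpm1 of ON bipolar cells (2.59 and 0.102) and the calcium-binding protein Cabp5 (5.66 and 1.39). The factors Irx5 (6.28 and 33.0), Isl1 (0.776 and 4.79) and Fezf2 (1.6 and 6.79) were on the other side. At P8 the same genes were all higher in Cd73NC, with Gng13 at 22.2 in Cd73PC and 146 in Cd73NC, Pcp2 at 84.7 and 468, Trpm1 at 13.8 and 74.0, and Cabp5 at 22.9 and 183. The list's median log2 ratio was -1.48 at P5 and -2.74 at P8.

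The Müller glia and astrocyte list also went both ways, with 21 of 31 rows higher in Cd73NC and 8 in Cd73PC. Genes that progenitors and Müller glia share were on the Cd73NC side, such as the glutamate transporter Slc1a3 (46.6 and 146), glutamine synthetase Glul (112 and 261), the retinaldehyde carrier Rlbp1 (39.2 and 83.1), the secreted Wnt modulator Dkk3 (118 and 489) and the factor Sox9 (12.4 and 35.0). The 8 rows on the Cd73PC side included Aldoc (43.2 and 3.34), an aldolase of astrocytes, and Pdgfra (15.4 and 2.22), a receptor of retinal astrocytes. They also included Gfap (2.52 and 0.187), S100b (3.76 and 0.0358) and Pax2 (3.71 and 0.0925), which passed the filter through Cd73PC alone, so that their direction was fixed. These genes were singled out after their values were seen, and the astrocyte and Müller glia water channel Aqp4, below the filter, was at 0.0336 and 0.161. Fabp7, a fatty acid carrier of both, was at 951 and 458.

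Markers of cells from outside the neural retina moved with the sort as well. All 20 microglia and macrophage genes were above Cd73NC in Cd73PC, and the 16 that passed the FPKM filter were each past 1.5-fold, 8 of them passing through Cd73PC alone. The summed FPKM of the list was 26.7 in Cd73NC, 111 in Cd73PC and 34.7 in E18 whole retina. The complement genes C1qa (15.3 and 2.44), C1qb (10.02 and 1.83) and C1qc (10.3 and 1.53) had the largest ratios, the receptors were at lower levels, with Csf1r (4.94 and 0.697) and P2ry12 (6.04 and 1.17), and Fcer1g was at 1.62 in Cd73PC and listed at 0 in Cd73NC. Of 30 rows of pigment epithelium, lens and ciliary margin, 18 were above and 7 below Cd73NC, and 14 were listed at 0 in Cd73NC and 5 in Cd73PC. The melanosome genes Pmel (37.4 and 0.325), Tyrp1 (13.3 and 0.27), Dct (16 and 1.04) and Tyr (2.36 and 0.0413) were higher in Cd73PC, 6 of the 9 rows of this list passing the filter through Cd73PC alone, together with the carrier Ttr (7.76 and 0.205) and the opsin Rgr (13.6 and 1.18), while the opsin Rrh went the other way (7.88 and 29.1). Below the filter, the listed genes Rpe65 (0 in both), Mitf (0.468 and 0.505) and Best1 (0.109 and 0.445) were not higher in Cd73PC. The summed FPKM of that list was 105 in Cd73PC and 35.6 in Cd73NC. By contrast 3 of the 5 erythroid rows that passed the filter were higher in Cd73NC and none in Cd73PC. Among them were Hba-a1 at 15.4 and 51.6 and Hbb-b2 at 3.68 and 26.9, although globin copies share reads. Hbb-b1 was within 1.5-fold with a log2 ratio of -0.35, and both rows of Hba-a2 were under FPKM 1 in both libraries. The summed FPKM of the erythroid list was 71.3 and 168.5, with 5 of its 15 rows listed at 0 in Cd73PC and 3 in Cd73NC. Of 18 endothelial genes, 14 were under FPKM 1 in both libraries, and 2 were listed at 0 in each. Kdr (29.7 and 139), which retinal progenitors also express, and Cldn5 (5.17 and 29.1) were higher in Cd73NC. Of the 17 pericyte and stroma rows, 5 passed the filter, 2 higher in each direction, and the summed FPKM was 33.8 in Cd73PC and 26.0 in Cd73NC. Over all rows of a list, those below the filter included, the median log2 ratio was 1.54 for microglia, 0.05 for pigment epithelium, lens and ciliary margin, -0.05 for the erythroid list and -0.01 for endothelium. Among all members of these 5 lists the highest level in Cd73PC was that of Pmel at 37.4. The part of these cell types in the other results was not tested.

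**Figure D4:**
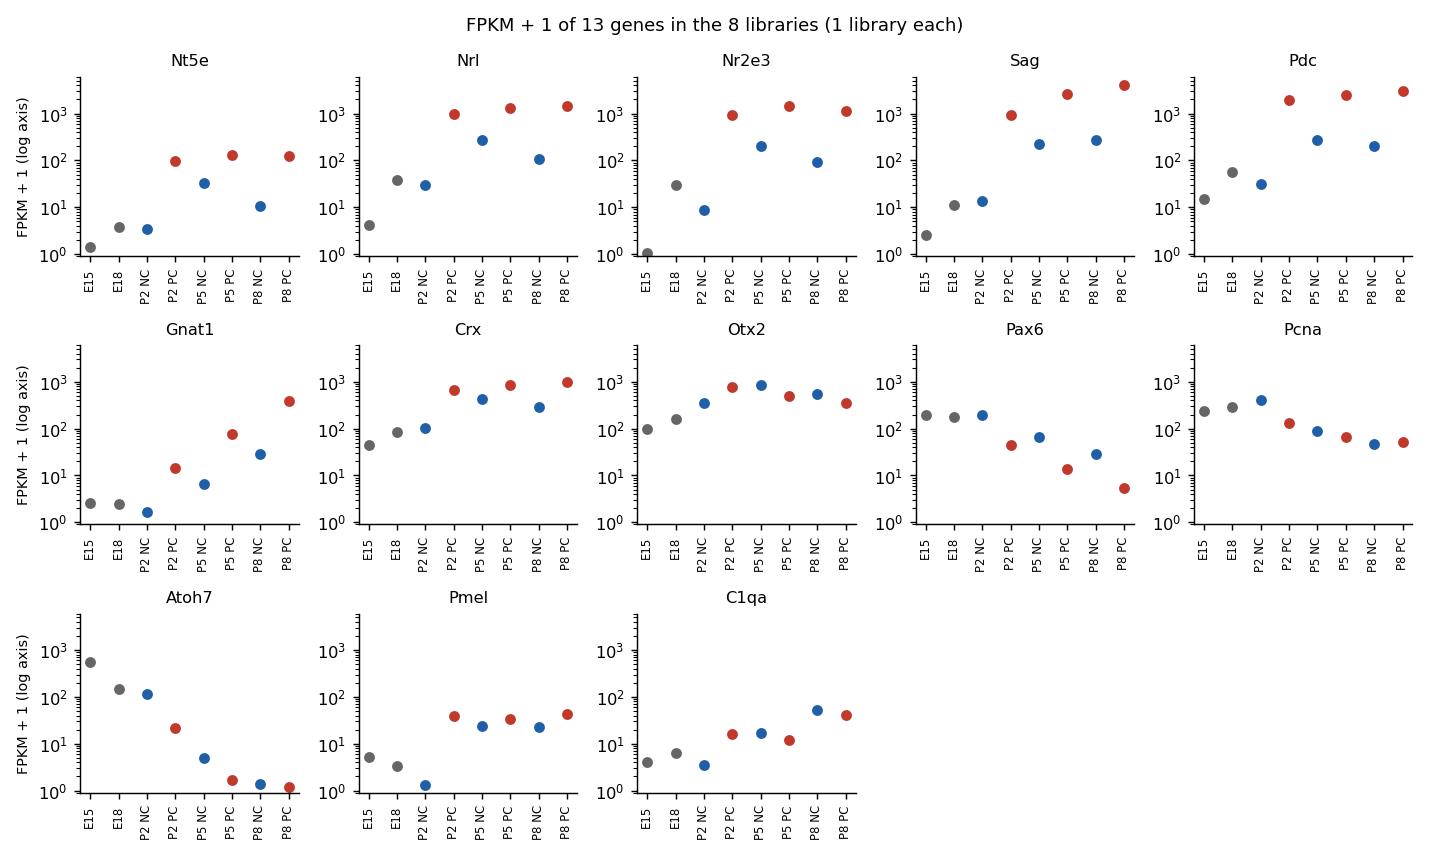
FPKM + 1 (log axis) of 13 genes in the 8 libraries, 1 point per library, with 1 library per condition and no error. At P2, Nrl, Nr2e3, Sag, Pdc, Gnat1 and Crx are higher in Cd73PC, Pax6, Pcna and Atoh7 are higher in Cd73NC, and the pigment gene Pmel (37.4 and 0.325) and the microglia gene C1qa (15.3 and 2.44) are higher in Cd73PC.

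Genes of cell surface guidance and signalling were mostly in Cd73NC. Of 31 guidance and adhesion rows, 22 were higher in Cd73NC and 3 in Cd73PC, and 4 passed the filter through Cd73NC alone. Epha3 (4.27 and 24.7), Efnb2 (8.99 and 40.8) and Robo1 (2.79 and 14.4), receptors and a ligand of growing axons and of patterning, were among the first, and the semaphorin Sema7a (25.5 and 4.20) and the semaphorin receptor Plxna2 (24.4 and 13.4) among the second. Of 19 rows with an Eph or ephrin symbol, 15 were higher in Cd73NC and 1 in Cd73PC. Of 34 rows of Wnt, Hedgehog and growth factor signalling, 18 were higher in Cd73NC and 4 in Cd73PC, with 4 that passed through Cd73NC alone and 1 through Cd73PC alone. Fgf15, a growth factor of progenitors, had FPKMs of 27.9 (Cd73PC) and 152 (Cd73NC), the Wnt receptor Fzd5 10.7 and 41.1, and the Hedgehog target Gli1 2.56 and 14.0. Lifr, the receptor for leukemia inhibitory factor, a cytokine that affects rod maturation, was at 22.9 and 3.12.

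Ion transport genes of rods were already separated. The chloride channel Ano2 was at 47.9 in Cd73PC and 1.88 in Cd73NC, and the sodium pump subunit Atp1b2 at 668 and 91.1. Of 24 rows in the channel list, 9 were higher in Cd73PC and 7 in Cd73NC, although 6 passed the filter through Cd73NC alone and 1 through Cd73PC alone. Over all 34 rows, 11 were above Cd73NC in Cd73PC and 23 below. For the 24 rows the median log2 ratio was -0.30, or 1.27 over rows with FPKM of at least 5.

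The enzyme and receptor genes around Cd73 went in different directions. Cd73 makes adenosine from AMP. The upstream ectonucleotidase Entpd2 was at 2.91 in Cd73PC and 13.1 in Cd73NC, adenosine kinase (Adk) at 10.2 and 23.5, and adenosine deaminase (Ada) at 0.921 and 2.94. Purine nucleoside phosphorylase (Pnp), which acts after the deaminase, was at 82.0 and 16. The transporter Slc29a2 (6.46 and 2.62) and the receptor Adora1 (1.47 and 0.0843) were higher in Cd73PC, and Slc29a1 was at 12.7 and 13.4. Ada passed the filter through Cd73NC alone and Adora1 through Cd73PC alone, which fixes their sides.

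Energy metabolism differed by gene. Of 27 glycolysis genes, 14 were higher in Cd73NC and 5 in Cd73PC. Lactate dehydrogenase A (Ldha) had FPKMs of 1683 (Cd73PC) and 615 (Cd73NC), the neuronal enolase Eno2 60.1 and 14.5, and the kinase Pdk2, which restrains pyruvate entry into mitochondria, 79.0 and 19. The general enolase Eno1 (194 and 468), Pgk1 (215 and 512) and the lactate exporter Slc16a3 (13.1 and 55.8) were higher in Cd73NC. Pyruvate kinase Pkm2 was equal at 1113 and 1169. Of 45 respiratory chain genes, 40 were above Cd73NC, but 4 were past 1.5-fold, with a median log2 ratio of 0.19. Of 55 ribosomal protein genes, 51 were below, and 2 were past 1.5-fold, with a median of -0.25.

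Chromatin genes differed by list. Of 31 Polycomb and H3K27 demethylase genes, 20 were within 1.5-fold, against 60.5% of all rows. The list's median log2 ratio was 0.02. The methyltransferase Ezh2, which places H3K27 methylation, was at 49.1 in Cd73PC and 82.1 in Cd73NC, and its relative Ezh1, typical of cells that no longer divide, at 10.3 and 3.56. Their partners Suz12 (54.0 and 53.2) and Eed (28.6 and 29.0) were equal. The accessory subunit Jarid2 (31.2 and 9.90) was higher in Cd73PC, and the demethylase Kdm6b was just past the limit at 22.5 and 14.4. Of 40 lamina, heterochromatin and DNA methylation genes, 18 were within 1.5-fold, 17 (42.5%) were higher in Cd73NC and 5 (12.5%) in Cd73PC. Of all rows, 25% and 14.5% were. The lamin B receptor Lbr, whose loss accompanies the inverted nuclei of mouse rods, was at 21.2 and 57.3, lamin B1 (Lmnb1) at 96.2 and 240.0, and the chromatin remodeler Hells at 6.77 and 24.7. The nucleosome-binding protein Hmgn2 (876 and 413), the H3K9 methyltransferase Suv39h2 (20.9 and 9.61) and the demethylation enzyme Tet3 (31.3 and 12.8) were higher in Cd73PC.

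Stress and death genes gave no single direction. Of all rows, 14.5% were higher in Cd73PC and 25% in Cd73NC. Of 20 immediate early and heat shock rows, 8 (40%) were higher in Cd73PC and 2 (10%) in Cd73NC, 3 of the 20 passing the filter through Cd73PC alone. The early response gene Ier3 stood out at 81.9 and 3.12, and Junb was at 17.3 and 3.80, Fos at 10.5 and 5.61 and Egr1 at 17.0 and 9.01, while Jun was at 57.2 and 70.3. Of 19 apoptosis regulators, 5 (26.3%) were higher in Cd73PC and 6 (31.6%) in Cd73NC. The first included the survival gene Bcl2l1 (82.4 and 38.5) and the inducer Bmf (5.04 and 1.16). The second included Bcl2 (0.942 and 2.79) and Bak1 (6.35 and 13.8). Bcl2 passed the filter through Cd73NC alone, which fixes its side. Bax (64.0 and 64.4) was within 1.5-fold. Of 15 long noncoding RNAs, 5 (33.3%) were higher in Cd73PC and 4 (26.7%) in Cd73NC, with Miat at 4.51 and 21.9 and Meg3 at 8.54 and 4.69. Of these rows, 1 passed the filter through each library alone. Over all 21 rows of that list, 10 were above Cd73NC in Cd73PC and 11 below.

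Of the 303 rows at least 4-fold higher in Cd73PC, 94 were in one of the lists and 209 in none. Those in no list with the largest ratios included Htra1, a secreted serine protease (192 in Cd73PC and 5.12 in Cd73NC), Pitpnm3, a phosphatidylinositol transfer protein (52.0 and 0.7), the connexin-like Gje1 (25.4 and 0.141), the lipid carrier Sec14l2 (76.1 and 3.28) and Ppp2r2b, a phosphatase subunit (42.2 and 1.21). Igf2, the imprinted growth factor, was at 165 and 7.92. Among the 76 rows at least 4-fold higher in Cd73NC, 33 were in a list. The largest ratios outside the lists were those of LOC100302567, a locus of less than 100 bases listed at 0 in Cd73PC and at 55.3 in Cd73NC, Gm6793 (16.6 in Cd73NC and below any countable level in Cd73PC), and 2 copies of the histone gene Hist2h2aa2 with the same values, 0.00371 and 8.35. These copies, and Rps27 (3.87 and 32.8), which has many near-identical pseudogenes, are rows on which reads can be split or lost, so they are uncertain. LOC100302567 and Gm6793 are uncertain too. In Cd73NC the FPKM of LOC100302567 lay above its upper Cufflinks bound of 5.00, and Gm6793 was below any countable level in every P5 and P8 library. Others in no list were Cyp26a1, which degrades retinoic acid (2.99 and 26.5), the leucine-rich repeat protein Lrrn3 (8.05 and 47.1), the chemokine receptor Cxcr4 (19.1 and 102), Gas1, a Hedgehog co-receptor (14.1 and 75.8), and the adhesion molecule Mcam (9.51 and 48.3).

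The most abundant transcripts were common to the fractions, and the 10 highest rows took 4.70% of the summed FPKM in Cd73PC and 5.04% in Cd73NC. The elongation factor Eef1a1 (2596 in Cd73PC and 3661 in Cd73NC), Tpt1p (2502 and 2648) and brain creatine kinase Ckb (1589.7 and 2338) were at the top of both. Pdc at 1935 and Ldha at 1683 were among the 10 highest of Cd73PC alone, and Ptma, a nuclear protein of growing cells, at 1265 and 2213, among those of Cd73NC.

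The sorts at P5 and P8 used other animals and libraries, so a row can be followed there in libraries not shared with P2. At those ages 12.3% of 12266 and 13% of 12416 rows were higher in Cd73PC, and 26.9% and 31.3% in Cd73NC. Of 1795 rows higher in Cd73PC at P2 with values at all ages, 756 (42.1%) were higher in Cd73PC at both later ages and 74 were higher in Cd73NC at both. The share rose with the ratio at P2, from 23.8% of 833 rows between 1.5-fold and 2-fold to 48.7% of 659 between 2-fold and 4-fold, 72.6% of 201 between 4-fold and 8-fold, and 89.2% of 102 past 8-fold. Of 3095 rows higher in Cd73NC at P2, 1702 (55.0%) were higher in Cd73NC at both later ages and 9 were higher in Cd73PC at both. After quantile normalization the 1702 became 1127. The 303 rows at least 4-fold higher in Cd73PC had median levels of 2.58 at E15 and 5.19 at E18, of 32.2 in Cd73PC at P2, and of 44.7 and 50.7 in Cd73PC at P5 and P8. In Cd73NC their medians were 3.23, 13.5 and 11.4 at P2, P5 and P8. Of these rows, 252 (83.2%) were higher in E18 whole retina than in Cd73NC at P2, against 51.1% of all rows. They were chosen for a level in Cd73NC at P2 that was low beside Cd73PC. That choice favours such a count, so no conclusion is drawn from it.

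**Figure D5:**
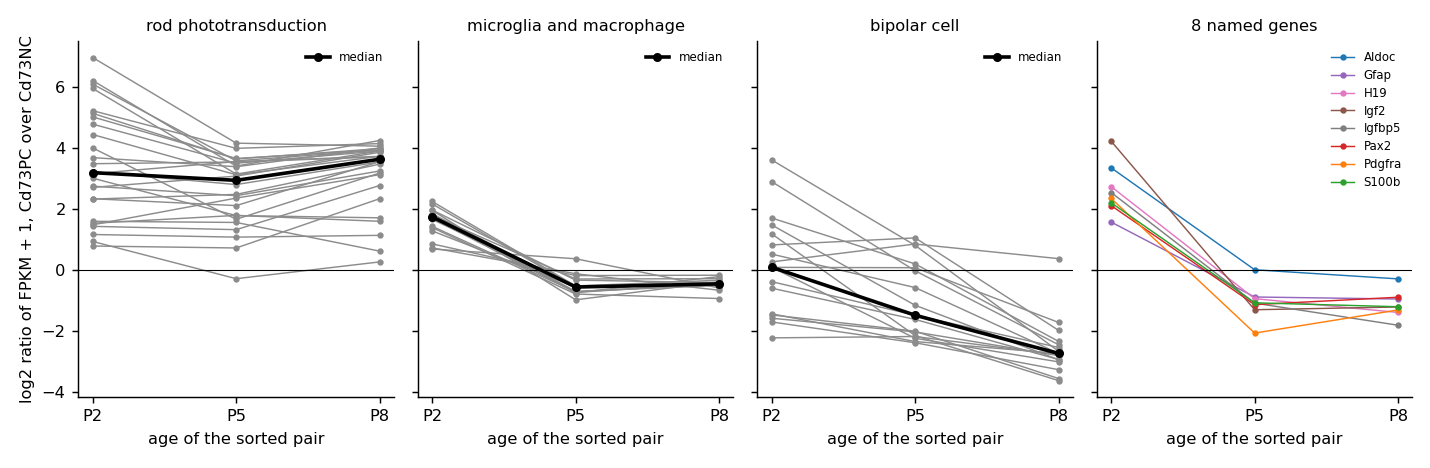
Log2 ratio of FPKM + 1 in Cd73PC to Cd73NC (vertical axis) at P2, P5 and P8 (horizontal axis), in grey for the members of the rod phototransduction, microglia and bipolar lists with the median in black, and in colour for Aldoc, Pdgfra, S100b, Pax2, Gfap, Igf2, H19 and Igfbp5, with 1 library per fraction and age. The rod median stays near 3 (3.19, 2.94 and 3.63), the microglia list goes from 1.74 to -0.56 and -0.46, and the bipolar list from 0.09 to -1.48 and -2.74.

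Some rows higher in Cd73PC at P2 were not so later. Of the 303 rows, 40 were past 1.5-fold on the Cd73PC side at neither P5 nor P8. They included Igf2 (39.3 in Cd73PC and 98.5 in Cd73NC at P5), the LIM protein Crip1 (54.3 and 3.63 at P2, 10.4 and 17.2 at P5), the hypoxia factor Epas1 (20.4 and 1.56, then 6.76 and 15.1) and the imprinted RNA H19 (349 and 51.7, then 31.6 and 61.6). Pdgfra and Mlc1 were among the 40, with Pdgfra at 3.91 in Cd73PC and 19.6 in Cd73NC at P5 and Mlc1 at 6.32 and 0.172 at P2 and 2.79 and 11.3 at P5. Of the 20 microglia genes, all above Cd73NC in Cd73PC at P2, 18 were below it at P5 and 19 at P8. Otx2 changed sides too. Its level of 777 in Cd73PC against 349 in Cd73NC was followed by 492 against 851 at P5 and by 353 against 552 at P8.

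Of the 12398 rows, 11265 had an FPKM of at least 1 in both libraries, 465 in Cd73PC only and 660 in Cd73NC only. The rows just inside the limit were Rasip1 (1.00035 in Cd73PC and 0.957 in Cd73NC), Cryab (1.00094, listed at 0 in Cd73NC) and Slc18a2 (1.00159 and 0.914). Just outside were Fam132b (0.361 and 0.999971), Sap25 (0.0634 and 0.999948) and G630016D24Rik (0.99991 and 0.969). Cufflinks failed in 1 of the libraries for 8 rows, which therefore have no ratio: Ankrd33b, Canx, Ddx17, Kdelr3, Mau2, Sp4 and Zfp266 in Cd73PC and Eif4a1 in Cd73NC. The number of reads per library is unknown.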

How the data were processed

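RNA from whole retinas and from sorted Cd73PC and Cd73NC was sequenced by the authors with 36-base single-end reads from random-primed cDNA. The deposited tables hold FPKM, which the authors computed with Cufflinks 2.1.1 after TopHat2 2.0.8b alignment to NCBI37/mm9, per the submitters' processing notes. FPKM keeps neither whole reads nor the depth, and library totals are not given in the sources used here. Values are normalized within each library, so a ratio between libraries depends on the scaling.

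The 2 P2 tables were joined on gene and locus. The 799 small RNA rows were left out, rows with FPKM of at least 1 in either library were kept, and ratios were taken on FPKM + 1 with Python 3.11.15, pandas 2.3.3 and numpy 2.4.6. The script was tested on simulated data. With 1 library per condition no test was run, so the text gives values, counts past 1.5-fold and list medians beside those of all rows. A log2 value is the log2 ratio of FPKM + 1, which understates the difference of low genes. The members and the 33 gene lists were chosen with earlier results of these data known. Genes were named by a rule: Nt5e and Nrl, the 20 largest ratios in each direction, list members with the largest ratios, the highest levels or against their list, the 10 largest ratios in no list, the 10 highest rows of each library, and the rows next to the FPKM limit. Other genes named, such as Crip1, Epas1, Mlc1, Bcan and members near equality, were chosen after their values were seen. Of 953 listed symbols, 10 were not found in the tables. Promoters came from RefSeq (GRCm38.p6). Alternatives were the pseudocount, the filter, the scaling, the treatment of repeated symbols, small RNAs and failed rows, and the threshold. Some genes of the lists are not reported here.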

Additional observations from a re-analysis of the deposited data

Results flagged for a closer look

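Of all rows, 74 were past 1.5-fold on the Cd73PC side at P2 and on the Cd73NC side at both P5 and P8, and 9 went the other way. The genes below are among those of them that are in a list or were named singly. The median of the microglia list was past 1.5-fold at P2 and on the other side later, and medians nearer 0 also changed sign for the bipolar cell, pericyte, long noncoding RNA, horizontal cell and Polycomb lists. With 1 library per fraction and age this change of side was not tested. The microglia list had a median log2 ratio of 1.74 at P2, -0.56 at P5 and -0.46 at P8.

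Over the Müller glia and astrocyte list, 21 of 31 rows were higher in Cd73NC at P2 and 8 in Cd73PC. Genes higher in Cd73PC at P2 included some that astrocytes express, singled out after their values were seen, with log2 ratios of 2.34 for Pdgfra, 2.20 for S100b, 2.11 for Pax2, 1.57 for Gfap, 2.64 for Mlc1 and 2.53 for Bcan. All of these but Pdgfra had an FPKM under 1 in Cd73NC and passed the filter through Cd73PC alone, which fixes their side at P2. The same holds for Adora1, Lhx3, Fcer1g and Cryab below. The imprinted genes Igf2 and H19 had 4.22 and 2.73, and the growth factor binding protein Igfbp5 had 2.54. Crip1 had 3.58 and the hypoxia factor Epas1 had 3.06. The early response genes Fos and Egr1 had 0.80 and 0.85. Of genes tied to bipolar cells, Cabp5 had 1.48 and Lhx3 1.18, and Otx2, which photoreceptors share with them, had 1.15. The adenosine receptor Adora1 had 1.19, the adhesion gene Cntn1 0.79, the immune receptor subunit Fcer1g 1.39, and the lens gene Cryab 1.0, the last pair being listed at 0 in Cd73NC.

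In the other direction, higher in Cd73NC at P2 and in Cd73PC later, Rbpms2 had a log2 ratio of -0.66 and the ribosomal gene Rps27 of -2.79. Rps27 has near-identical copies, so its value is uncertain.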

How the results depend on the processing

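No paired analysis was possible because each condition had 1 library, and for the same reason no replicate could be left out. The sign of 5 list medians depended on the setting. That of the channel list was 1.27 with FPKM of at least 5 against -0.30, as fewer rows remained. Medians near 0 changed sign for horizontal cells (0.05, and -0.33 with FPKM of at least 5), bipolar cells (0.09 and -0.15), long noncoding RNAs (0.24 and -0.07) and the adenosine list (-0.07, and 0.06 scaled to a median ratio of 0). Counting each result once per setting, list medians stayed within 1.5-fold of the main value in 380 cases and moved in 16. For counts the cases were 43 and 5, and for single genes 9525 and 179. The limit of 1.5-fold is a fixed cutoff and not a measured spread. With a pseudocount of 0.1 the medians were 4.19 for rod phototransduction, 2.45 for the ribbon synapse, 2.5 for microglia and 4.12 for the pigment list, and with none 4.34, 2.46, 2.57 and 5.24, since a smaller pseudocount widens ratios of low genes. Without the filter they were -0.65 for ganglion cells, -0.013 for endothelium, -0.051 for the erythroid and 0.047 for the pigment list, as rows near 0 enter. With FPKM of at least 5 they were 2.58 for the ribbon synapse and 0.87 for pericytes, and with rows of a symbol summed -1.02 for the erythroid list, with fewer rows. At 2-fold, 963 rows were higher in Cd73PC and 1563 in Cd73NC, of which 391 and 803 were so at both later ages. After quantile normalization 1127 rows higher in Cd73NC, from 1702, kept that side later, and the cause was not tested. Scaling to a median ratio of 0 moved the median of all rows from -0.14 to -0.01 and gave 2244 rows higher in Cd73PC and 2574 in Cd73NC, 46.6% of calls against 36.7%. Quantile normalization gave 2163 and 2615. Cufflinks bounds at FPKM 10 to 20 spanned a median of 7.84% in Cd73PC and 9.20% in Cd73NC on each side. These medians cover only rows whose FPKM lay inside its bounds. The FPKM lay outside them for 2057 rows in Cd73PC, Nr2e3 and Sag among them, and for 1852 in Cd73NC. The bounds cover neither animals nor sorting.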

Other observations

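Gene families, taken by symbol and in part made of genes also in the lists, were uneven. Of 71 rows of clustered histone genes, 51 were higher in Cd73NC and 6 in Cd73PC, although many of these transcripts lack a poly(A) tail and their copies share reads. Of 17 centromere protein genes, 14 (82.4%) were higher in Cd73NC and none in Cd73PC, and of 19 collagens 12 (63.2%) and 3 (15.8%). Among 333 zinc finger genes with a Zfp symbol, 38 (11.4%) were higher in Cd73NC and 26 (7.81%) in Cd73PC. Both shares were below those of all rows, 25% and 14.5%. Housekeeping families stayed within 1.5-fold for the most part, with 1 of 45 proteasome genes and 4 of 76 mitochondrial ribosome genes past it.

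Besides Rps27 and Rbpms2, 7 rows were higher in Cd73NC at P2 and in Cd73PC at P5 and P8. Vstm2l had a log2 ratio of -1.19 at P2 and 1.31 at P8, and the inner nuclear membrane gene Nrm had -0.70 and 1.21. Adcy1, an adenylyl cyclase, had -0.64 and 2.91. The others were Lrrc1, AA465934, Arhgap10 and Tbc1d30.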
